A study of Mus musculus with 15 samples.

Results

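The liver turns dietary sugar into fat through a short chain of transporters, kinases and transcription factors, and 9 genes of that chain were followed across 15 pools of mouse liver. The genes are Srebf1, Mlxipl, Nr1h3, Slc2a2, Gckr, Khk, Pfkl, Pklr and Pnpla3. They were taken as a named set, chosen with earlier results of these data known. Each was read at the probe set annotated to that symbol alone with the highest mean over the 15 arrays. The set makes up 9 of the 18193 genes that could be named on the array, and each of the 9 was measured.

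The study asked whether expression patterns in the liver of males with a perinatal nutritional challenge are also found in the sons they fathered. Whole liver RNA was hybridised to the Affymetrix Mouse Genome 430 2.0 array, with 3 pools in each of 5 groups. The titles carry the number 3 beside the word pool, which is read here as 3 livers in each pool. IUGR F2 pools (numbers 10, 11 and 12) and ON F2 pools (13, 14 and 15) came from male offspring of IUGR and ON males, with no exposure of their own given in the labels. The exposed males themselves, all adult, gave the IUGR F1 pools (4, 5 and 6), which met a caloric restriction of 50% in utero, and the ON F1 pools (7, 8 and 9), which were overfed as sucklings. Control pools (1, 2 and 3) drew on unexposed males of both generations together, so a difference between F2 and F1 cannot be told apart from generation alone. The labels give no strain, no age beyond adult, no feeding state and no hour of collection. Nothing in them says that the pools of a group came from separate litters, so p-values measure only the spread between these pools, and a pool hides the spread between single animals.

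Sugar reaches the hepatocyte through GLUT2, the product of Slc2a2, and is trapped as a phosphate ester before glycolysis or fructolysis breaks it down to pyruvate. ChREBP, the product of Mlxipl, senses sugar metabolites and switches on genes of glycolysis and fat synthesis, while SREBP1, the product of Srebf1, does so under insulin. LXRalpha, the product of Nr1h3, is a receptor for oxidised cholesterol that raises Srebf1 transcription. Pnpla3, a lipid droplet protein, is induced in liver by both SREBP1 and ChREBP.

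The windows of 250 bases upstream of the start sites are shown for Pklr, Khk and Pnpla3, 3 members whose levels varied closely together across pools, and for Mlxipl, whose protein binds the carbohydrate response element. RefSeq (GRCm38.p6) gave a start site for all 9 members, in 14 windows, 4 members having more than 1 start. Capitals mark matches on either strand to CACGTG, the E-box, to CACGGGNNNNNCCCGTG, the spaced pair of sites that forms the carbohydrate response element of liver pyruvate kinase, to TCACNCCAC, a form of the sterol regulatory element, and to CCAAT, the NF-Y box, which reads ATTGG on the opposite strand. All windows lie on the plus strand and end 1 base before the start site. The Pklr window, at chr3:89136373-89136622, belongs to the downstream of its 2 starts, the one that liver uses. The others lie at chr5:30921309-30921558 (Khk), chr15:84167566-84167815 (Pnpla3) and chr5:135089640-135089889 (Mlxipl, the upstream of 2 starts).
Pklr: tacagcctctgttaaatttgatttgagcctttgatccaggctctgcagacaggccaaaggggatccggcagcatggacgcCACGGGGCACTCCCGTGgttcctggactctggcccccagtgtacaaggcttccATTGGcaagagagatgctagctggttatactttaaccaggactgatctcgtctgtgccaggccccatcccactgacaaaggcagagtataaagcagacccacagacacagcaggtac
Khk: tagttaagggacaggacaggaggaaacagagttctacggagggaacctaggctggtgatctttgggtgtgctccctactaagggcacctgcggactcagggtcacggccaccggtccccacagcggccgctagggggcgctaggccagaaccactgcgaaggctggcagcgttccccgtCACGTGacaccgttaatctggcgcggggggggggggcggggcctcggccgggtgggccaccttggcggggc
Pnpla3: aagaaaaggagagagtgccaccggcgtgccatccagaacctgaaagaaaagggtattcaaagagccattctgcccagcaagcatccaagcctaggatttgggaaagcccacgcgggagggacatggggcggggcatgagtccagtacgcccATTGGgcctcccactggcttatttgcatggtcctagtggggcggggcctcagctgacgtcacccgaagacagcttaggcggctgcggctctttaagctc
Mlxipl: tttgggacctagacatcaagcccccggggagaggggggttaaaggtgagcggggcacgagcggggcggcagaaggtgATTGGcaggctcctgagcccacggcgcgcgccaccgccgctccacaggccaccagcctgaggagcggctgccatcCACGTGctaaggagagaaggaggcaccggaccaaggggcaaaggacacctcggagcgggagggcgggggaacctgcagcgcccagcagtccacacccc
The Pklr window held the carbohydrate response element at bases -170 to -154 and a CCAAT box at -117 to -113. The E-box stood at -71 to -66 in Khk and at -98 to -93 in Mlxipl, and CCAAT at -99 to -95 in Pnpla3 and at -173 to -169 in Mlxipl. Of 32851 windows of the same length, 6.02% held the E-box, 33.8% CCAAT and 1.05% the sterol element, whose single match among the members lay at -136 to -128 of the other Mlxipl start. The carbohydrate response element was found in 1 window of all, that of Pklr, from which its spelling was taken. These matches describe the letters of the windows and do not show binding in these livers.

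The arrays matched their tissue label. Of 10 hepatocyte markers, such as Alb and Apoa1, 9 were measured, with means between 11.52 and 14.43 on the log2 scale of RMA (robust multi-array average), and their median lay between -0.05 and 0.05 of the control mean in each pool. Array medians lay between 4.60 and 4.68. The number of arrays limits the precision, and the median standard error of a group difference over all genes was 0.10. ON F2 pool 13 stood apart in pancreatic acinar markers, whose median lay 4.59 above the control mean there and between -0.04 and 0.30 in the other pools. The clock gene Dbp, whose liver level swings over the day, ran from 5.30 to 10.71. Of the array pairs, 0 held identical values.

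No member passed the threshold, an adjusted p of 0.05 over all genes, against control in any group or in another planned comparison. Khk and Pfkl were called lower in F2 than F1 pools over both lineages, a comparison added after the values had been seen. All 6 F2 pools lay below all 6 F1 pools for both genes, as for 1.8% of all genes. Both calls were lost in some of the alternative settings given below. Pklr and Pnpla3 lay lower in most F2 pools without passing, Mlxipl lay slightly higher, and Nr1h3 and Gckr hardly varied. Because whole liver was measured, fewer cells of a type and less RNA per cell cannot be told apart in any of these values.

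**Figure D1:**
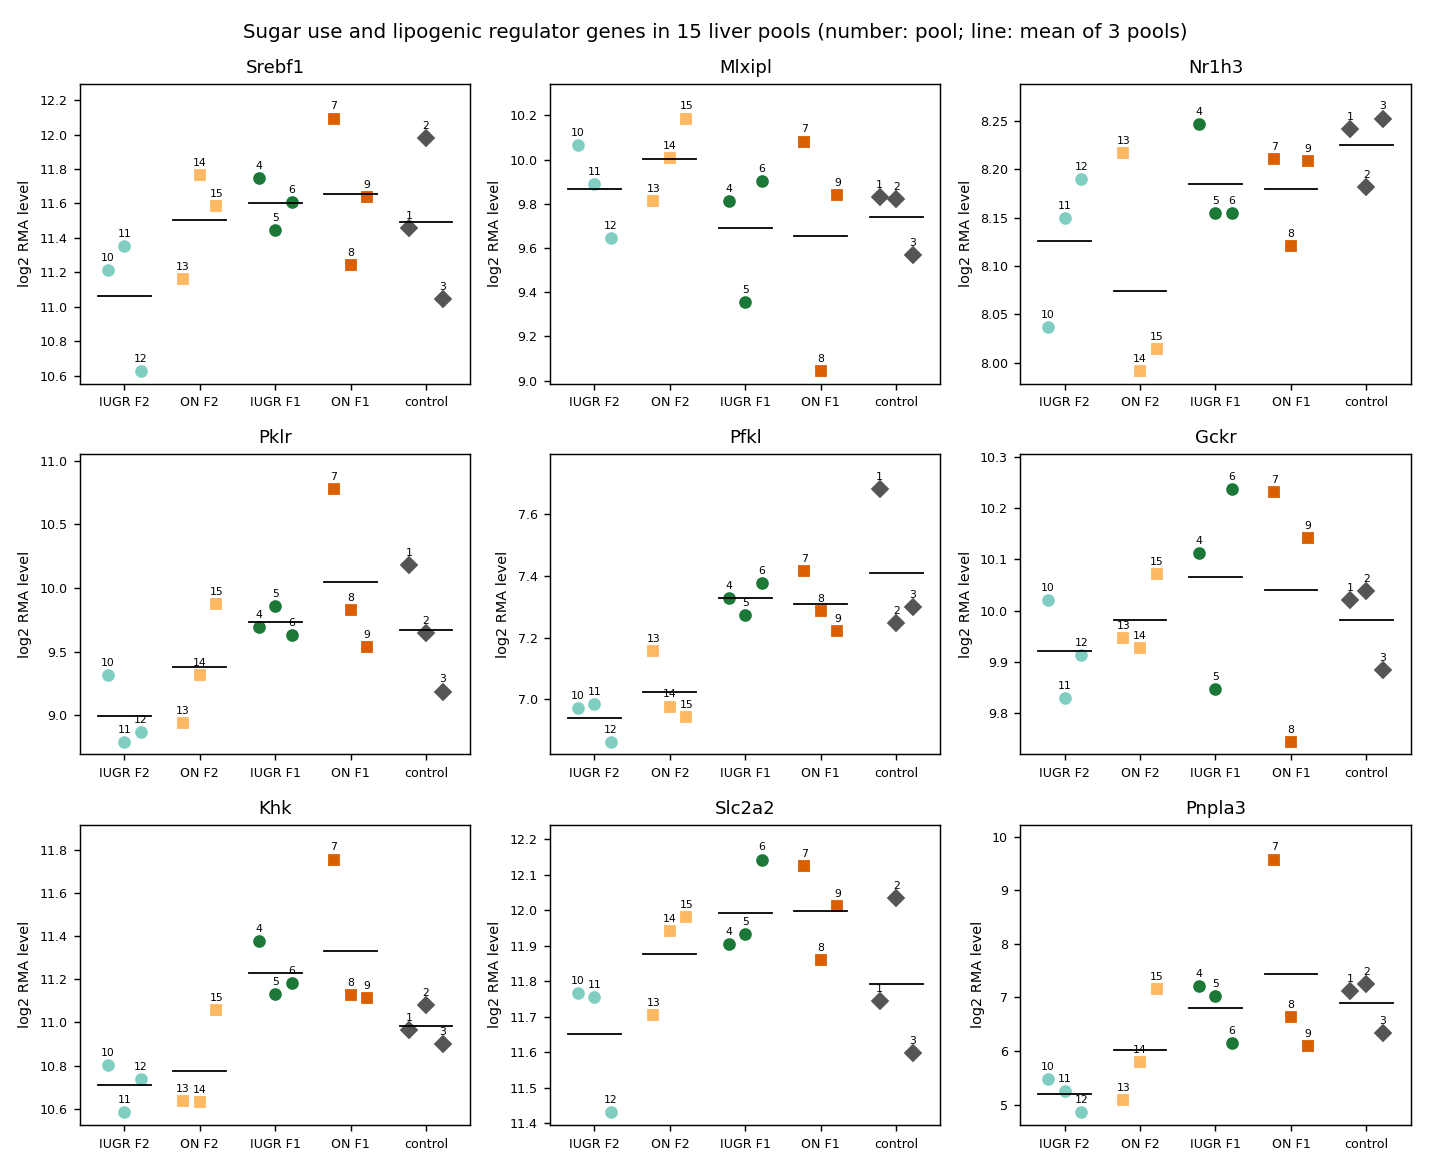
Log2 RMA level of each of the 9 genes (vertical axis) in the 15 liver pools (horizontal axis: group), with the pool number above each point and a line at the mean of 3 pools. The 6 F2 pools sit below the 6 F1 pools for Pfkl and Khk, ON F1 pool 7 is the highest pool for Srebf1, Pklr, Khk and Pnpla3, and vertical axes differ between panels.

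The 3 regulators differed in the order of their group means, and no difference between regulators was tested. Srebf1 levels were 11.21, 11.35 and 10.63 in IUGR F2 pools, 11.16, 11.77 and 11.58 in ON F2 pools, 11.75, 11.45 and 11.61 in IUGR F1 pools, 12.09, 11.24 and 11.63 in ON F1 pools, and 11.46, 11.98 and 11.05 in control pools. IUGR F2 pool 12 was the lowest of the 15 and ON F1 pool 7 the highest, the 3 IUGR F2 pools lay below the 3 IUGR F1 pools, and the IUGR F2 pools overlapped the control pools. The difference was -0.43 ± 0.25 (SE) for IUGR F2 minus control (limma adjusted p = 0.768) and -0.54 ± 0.25 for IUGR F2 minus IUGR F1 (limma adjusted p = 0.439). The IUGR F2 minus control value was -0.66 without control pool 3, -0.19 without control pool 2 and -0.21 without IUGR F2 pool 12. In ON F2 livers the mean, 11.50 ± 0.31 (SD, n = 3), was close to that of control livers, 11.49 ± 0.47. In the order of group means, ON F1, IUGR F1, ON F2, control, IUGR F2, the last step was the only one larger than the pooled SD within groups of 0.36.

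Mlxipl had its highest group means in the F2 groups. It stood at 10.06, 9.89 and 9.65 in IUGR F2 pools, 9.81, 10.00 and 10.19 in ON F2 pools, 9.81, 9.36 and 9.90 in IUGR F1 pools, 10.08, 9.04 and 9.84 in ON F1 pools, and 9.83, 9.82 and 9.57 in control pools. ON F1 pool 8 and IUGR F1 pool 5 were the lowest, ON F2 pool 15 was the highest, and no group was separate from another. ON F2 minus control came to 0.26 ± 0.22 (limma adjusted p = 0.596), IUGR F2 minus control to 0.13 ± 0.22 and ON F2 minus ON F1 to 0.35 ± 0.22 (limma adjusted p = 0.401). None of the 4 steps in its order of group means, ON F2, IUGR F2, control, IUGR F1, ON F1, exceeded the pooled SD of 0.31. Across the 15 pools Mlxipl and Srebf1 had a Pearson r of 0.414 (permutation test, adjusted p = 0.217). It was 0.733 after group means were subtracted.

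Nr1h3 was the steadiest of the 9, with group means of 8.13 ± 0.08 in IUGR F2 livers, 8.07 ± 0.12 in ON F2 livers, 8.19 ± 0.05 in IUGR F1 livers, 8.18 ± 0.05 in ON F1 livers and 8.22 ± 0.04 in control livers (SD, n = 3 each). ON F2 pools 14 and 15 were the lowest at 7.99 and 8.01, while pool 13 at 8.22 lay within the control range of 8.18 to 8.25. ON F2 minus control was -0.15 ± 0.08 (limma adjusted p = 0.363).

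Slc2a2, the glucose and fructose transporter of the hepatocyte surface, lay at 11.77, 11.75 and 11.43 in IUGR F2 pools, 11.70, 11.94 and 11.98 in ON F2 pools, 11.91, 11.93 and 12.14 in IUGR F1 pools, 12.12, 11.86 and 12.01 in ON F1 pools, and 11.75, 12.03 and 11.60 in control pools. The IUGR F2 pools lay below every IUGR F1 pool, and every group overlapped the control pools. The IUGR F2 minus IUGR F1 difference was -0.34 ± 0.13 (limma adjusted p = 0.351). Against control it was -0.14 ± 0.13 in IUGR F2 livers, 0.08 ± 0.13 in ON F2 livers, 0.20 ± 0.13 in IUGR F1 livers and 0.21 ± 0.13 in ON F1 livers, each short of the threshold.

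Gckr encodes a regulatory protein of hepatic glucose phosphorylation. Its group means were 9.92 ± 0.10 in IUGR F2 livers, 9.98 ± 0.08 in ON F2 livers, 10.07 ± 0.20 in IUGR F1 livers, 10.04 ± 0.26 in ON F1 livers and 9.98 ± 0.08 in control livers (SD, n = 3 each). Single pools ran from 9.74 in ON F1 pool 8 to 10.24 in IUGR F1 pool 6, both F1 groups, and no 2 groups were separate.

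Khk, ketohexokinase, phosphorylates fructose and commits it to the liver. It read 10.80, 10.58 and 10.74 in IUGR F2 pools, 10.63, 10.63 and 11.06 in ON F2 pools, 11.38, 11.13 and 11.18 in IUGR F1 pools, 11.76, 11.13 and 11.11 in ON F1 pools, and 10.97, 11.08 and 10.90 in control pools. The control pools lay between the generations: the IUGR F2 pools and ON F2 pools 13 and 14 were below every control pool, ON F2 pool 15 was inside the control range, and all 6 F1 pools were above every control pool. Against control the differences were -0.27 ± 0.16 in IUGR F2 (limma adjusted p = 0.76), -0.21 ± 0.16 in ON F2 (0.554), 0.25 ± 0.16 in IUGR F1 (0.692) and 0.35 ± 0.16 in ON F1 livers (0.339). The F2 minus F1 difference was -0.52 ± 0.16 in the IUGR lineage (limma adjusted p = 0.27) and -0.56 ± 0.16 in the ON lineage (0.0787), and the lineages share no pool here. Without ON F1 pool 7 the ON lineage value was -0.35.

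Pfkl, the liver form of phosphofructokinase, catalyses the committed step of glycolysis. Its levels were 6.97, 6.98 and 6.86 in IUGR F2 pools, 7.16, 6.98 and 6.94 in ON F2 pools, 7.33, 7.27 and 7.38 in IUGR F1 pools, 7.42, 7.29 and 7.22 in ON F1 pools, and 7.68, 7.25 and 7.30 in control pools. Each F2 pool was below each F1 and each control pool, as for 91 of the 18193 genes (0.5%), while the F1 and control pools overlapped. Against control the difference was -0.47 ± 0.11 in IUGR F2 (limma adjusted p = 0.37) and -0.39 ± 0.11 in ON F2 livers (0.142), both with the same 3 control pools. IUGR F2 minus IUGR F1 was -0.39 ± 0.11 (limma adjusted p = 0.246) and ON F2 minus ON F1 was -0.28 ± 0.11 (0.162). In an F test over the 5 groups Pfkl had an adjusted p of 0.1 in limma, the lowest of the 9, so 0 members were called, beside 34 of 18193 genes (0.187%).

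The other probe sets of Pfkl matched this result in part or not at all. The set used above, 1439148_a_at, had the highest mean, 7.20, against 6.43 for 1450269_a_at and 4.56 for 1453541_at, the last being near the array medians. Across the 15 pools 1439148_a_at correlated with 1450269_a_at at r = 0.72 and with 1453541_at at r = -0.593, as a description. Set 1450269_a_at gave -0.30 ± 0.10 for IUGR F2 minus control, -0.21 ± 0.10 for ON F2 minus control and -0.13 ± 0.07 for F2 minus F1 over both lineages. Its IUGR F2 minus IUGR F1 difference was -0.26 ± 0.10 with separate pools, and its ON F2 minus ON F1 difference was 0.0071. Its ON F1 pools, at 6.38, 6.34 and 6.37, lay inside the F2 range of 6.17 to 6.48. The dim set 1453541_at gave differences of opposite sign, 0.24 ± 0.09 for IUGR F2 and 0.34 ± 0.09 for ON F2 minus control. None of these passed the threshold over 34945 probe sets.

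**Figure D2:**
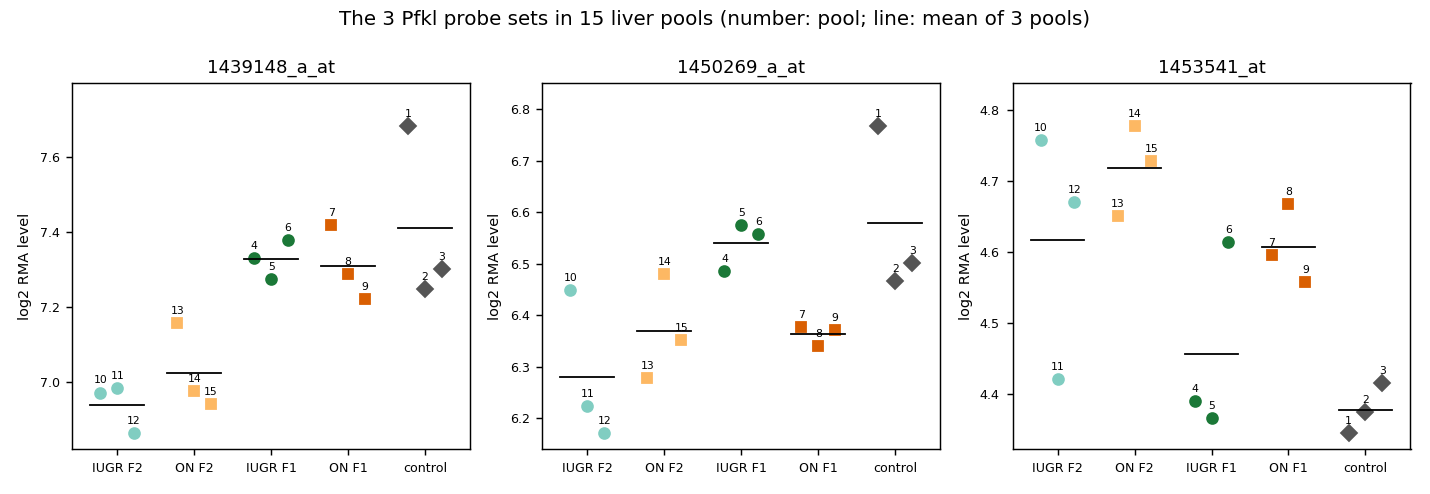
Log2 RMA level (vertical axis) of the 3 probe sets of Pfkl in the 15 pools by group, with pool numbers and a line at each group mean. The F2 pools are separate from all others in the left panel, overlap the ON F1 pools in the middle panel, and lie above the control pools in the right panel, whose levels of 4.34 to 4.78 are near the array medians.

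Pklr, liver pyruvate kinase, forms pyruvate at the end of glycolysis and is a classical ChREBP target. It read 9.31, 8.79 and 8.87 in IUGR F2 pools, 8.94, 9.32 and 9.88 in ON F2 pools, 9.70, 9.86 and 9.63 in IUGR F1 pools, 10.78, 9.83 and 9.54 in ON F1 pools, and 10.18, 9.65 and 9.19 in control pools. IUGR F2 pools lay below all IUGR F1 pools but overlapped control pools, and ON F2 pool 15 reached into the F1 range. The differences were -0.68 ± 0.30 for IUGR F2 minus control (limma adjusted p = 0.689), -0.30 ± 0.30 for ON F2 minus control (0.68), -0.74 ± 0.30 for IUGR F2 minus IUGR F1 (0.391) and -0.67 ± 0.30 for ON F2 minus ON F1 (0.244). Without ON F1 pool 7 the last was -0.30. Its 3 probe sets followed each other closely, with r between 0.938 and 0.982 over 15 pools.

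Pnpla3 had the widest range of the 9, from 4.86, close to the array medians, to 9.57 in ON F1 pool 7, the next highest pool being at 7.25. It stood at 5.48, 5.25 and 4.86 in IUGR F2 pools, 5.09, 5.80 and 7.15 in ON F2 pools, 7.21, 7.02 and 6.16 in IUGR F1 pools, 9.57, 6.63 and 6.10 in ON F1 pools, and 7.12, 7.25 and 6.34 in control pools. The IUGR F2 pools lay below every F1 and control pool, the ON F2 pools spread over both ranges, and ON F1 pool 7 stood 2.95 above the mean of the other F1 pools. IUGR F2 minus control was -1.71 ± 0.69 (limma adjusted p = 0.689), a fold of 0.307 with a 95% interval of -3.19 to -0.23 on the log2 scale. ON F2 minus control was -0.89 ± 0.69 (limma adjusted p = 0.57), and the F2 minus F1 differences were -1.60 ± 0.69 in the IUGR and -1.42 ± 0.69 in the ON lineage (limma adjusted p = 0.406 and 0.276). Without ON F1 pool 7 the ON lineage value was -0.35.

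Counted over the 9 members, 0 were called in each comparison against control. Of all genes, 0% were called in IUGR F2, 0% in ON F2, 0% in IUGR F1 and 0.022% in ON F1 livers. At an unadjusted limma p under 0.05 the shares were 7.05%, 15.1%, 8.43% and 14% in the same order. At that unadjusted level 3 members (Pfkl, Pklr and Pnpla3) differed in IUGR F2, 1 (Pfkl) in ON F2, 0 in IUGR F1 and 1 (Khk) in ON F1 livers. Pools did not overlap control pools for 3 members in IUGR F2 (Pfkl, Khk and Pnpla3, against 13.4% of all genes), 1 in ON F2 (Pfkl, 21%), 1 in IUGR F1 (Khk, 14.5%) and 1 in ON F1 livers (Khk, 16.4%). The shares for 1 of 9 members lie near these backgrounds. In IUGR F2 livers 8 of 9 members were negative with a median of -0.27, where 53.4% of all genes were negative with a median of -0.01, and in ON F2 livers 5 of 9 with a median of -0.15, where 50.7% of all genes were. In IUGR F1 and ON F1 livers the medians were 0.06 and 0.16. The members were chosen with earlier results of these data known, so these counts describe the set and do not test it.

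Between generations within a lineage, 0 members were called in IUGR F2 against IUGR F1 (0.011% of all genes) and 0 in ON F2 against ON F1 (1.43%). Pools were separate, each time lower in F2, for 6 members in the IUGR lineage (Srebf1, Pklr, Pfkl, Khk, Slc2a2 and Pnpla3, against 12% of all genes) and for 2 in the ON lineage (Pfkl and Khk, against 14%). Mlxipl was the only member with a positive difference in both lineages. The Dbp level was also separate between ON F2 pools, 6.54 to 10.71, and ON F1 pools, 5.34 to 6.23. With Dbp as a covariate 3 genes, none of them a member, were called in that comparison in place of 261. Between lineages, 0 members were called and 0 had separate pools for IUGR F2 against ON F2 (background 0.0055% called and 17.1% separate) or IUGR F1 against ON F1 (0.011% and 9.94%). In the generation by lineage interaction 0 members passed (0.011% of all genes), with limma adjusted p from 0.821 for Slc2a2 to 0.984. The interaction was 0.04 ± 0.22 for Khk, with a 95% interval of -0.44 to 0.51, and -0.10 ± 0.15 for Pfkl, with an interval of -0.42 to 0.21.

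**Figure D3:**
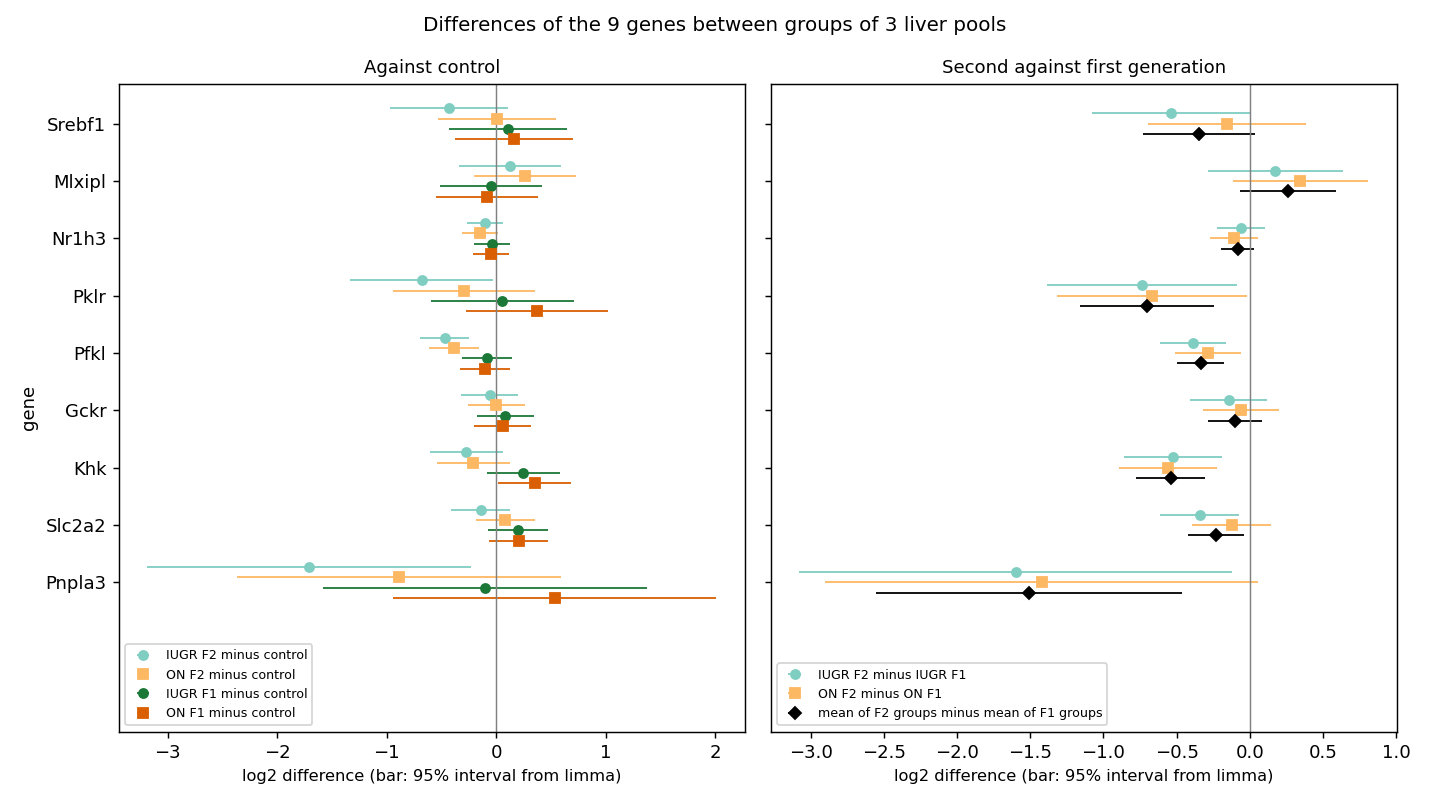
Log2 difference of each gene (horizontal axis) with its 95% interval from limma, for the 4 groups against control (left) and for F2 against F1 (right). Intervals of Pfkl lie below 0 in both F2 groups against control, and in the right panel those of Pklr, Pfkl, Khk, Slc2a2 and Pnpla3 lie below 0 for the mean of the F2 groups minus the mean of the F1 groups.

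Over both lineages, in a comparison added after the values had been seen, Khk and Pfkl were lower in F2 livers. Khk averaged 10.74 ± 0.17 in the 6 F2 pools (10.58 to 11.06) and 11.28 ± 0.25 in the 6 F1 pools (11.11 to 11.76), a difference of -0.54 ± 0.11 (limma adjusted p = 0.0232) or 0.688-fold. Pfkl averaged 6.98 ± 0.10 in F2 pools (6.86 to 7.16) and 7.32 ± 0.07 in F1 pools (7.22 to 7.42), a difference of -0.34 ± 0.07 (limma adjusted p = 0.0293) or 0.792-fold. Thus 2 of 9 members were called, both lower, where 3.81% of all genes were called and 2.46% were called lower. Separate pools of this kind, lower in F2, were found for 1.8% of all genes.

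Of the other members, Pklr differed by -0.70 ± 0.22 (limma adjusted p = 0.079), with 5 of 6 F2 pools below all F1 pools, and Pnpla3 by -1.51 ± 0.49 (0.0946), also with 5 of 6. Slc2a2 differed by -0.23 ± 0.09 (limma adjusted p = 0.148), Srebf1 by -0.34 ± 0.18 (0.27), Mlxipl by 0.26 ± 0.15 (0.336), Gckr by -0.10 ± 0.09 and Nr1h3 by -0.08 ± 0.05. Against control, where the background was 0%, no member was called in the 6 F2 pools together.

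Both calls lay close to the threshold. The Khk call was lost without IUGR F1 pool 4, IUGR F2 pool 11 or ON F2 pool 14, with differences of -0.50, -0.51 and -0.50 and adjusted p of 0.0601, 0.052 and 0.061. The Pfkl call was lost with the mean of its probe sets (-0.11, limma adjusted p = 0.246), with Dbp as a covariate (-0.31, 0.0567), and without any 1 of pools 4, 6, 7, 10, 11, 12, 14 and 15, with differences of -0.35 to -0.31 and adjusted p from 0.052 to 0.0727. Both calls held without ON F2 pool 13.

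Dbp overlapped between the generations, with 5.46 to 10.71 in F2 and 5.30 to 9.77 in F1 pools, and so did the difference between 3' and 5' actin probe sets, a sign of RNA length, with 1.84 to 2.28 in F2 and 1.83 to 2.22 in F1 pools. Medians of the marker lists for other cell types differed between F2 and F1 by -0.23 for sinusoidal endothelial cells to 0.52 for pancreatic acinar cells. Outside ON F2 pool 13 the acinar list median was 0.06 to 0.19 in F2 and 0.18 to 0.30 in F1 pools. All 12 Kupffer cell markers were higher in F2, with a median difference of 0.19 and 0 calls, and pool medians of -0.55 to 0.48 in F2 and -0.55 to -0.03 in F1 pools. Of the endothelial markers 8 of 10 were lower in F2 (median -0.23), and of the stellate markers 8 of 10 (-0.20), where 59.3% of all genes were lower. In each list 1 was called, Cdh5 with a difference of -0.36 ± 0.08 (limma adjusted p = 0.0311) and Des of -0.27 ± 0.07 (0.0431). The endothelial list, 10 of 10 measured, had pool medians from -0.27 to 0.19 of the control mean in F2 and 0.04 to 0.18 in F1 pools. The hepatocyte list differed by 0.02. The part of other cell types in the Khk and Pfkl results was not tested.

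The 9 genes were not equally tied to each other across the 15 pools. Of the 36 pairs, 32 had a positive Pearson r, and 17 by r, 7 by Spearman's rho and 6 by both passed an adjusted permutation p of 0.05. The permutations moved pools across groups, so shifts shared by a group count toward a tie. The share among pairs of other genes was not computed, so these counts only describe the set. Pklr and Pnpla3 formed the closest pair, with r = 0.93 and rho = 0.861 (permutation test, adjusted p = 0.00054 and 0.00252). The value was 0.87 without the 2 pools farthest from the median, 0.882 without ON F1 pool 7 and 0.875 after group means were subtracted. Khk joined both, with r = 0.886 and rho = 0.739 to Pnpla3 (adjusted permutation p = 0.00063 and 0.022) and r = 0.853 and rho = 0.736 to Pklr (0.00063 and 0.022). Without the 2 farthest pools these were 0.752 and 0.68. The upstream windows of these 3 genes are those shown above.

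Among the members Srebf1 went most closely with Slc2a2, at r = 0.891 and rho = 0.846 (adjusted permutation p = 0.00054 and 0.00414), 0.788 without the 2 farthest pools and 0.881 after group means were subtracted. By r but not by rho, Srebf1 also passed with Pklr (r = 0.657, adjusted permutation p = 0.0379) and Khk (r = 0.608, 0.0424). Without the 2 farthest pools these were 0.374 and 0.396. The remaining pairs past both tests were Srebf1 with Pnpla3 (r = 0.719, rho = 0.664, adjusted permutation p = 0.0227 and 0.0482) and Gckr with Slc2a2 (r = 0.608, rho = 0.664, 0.0424 and 0.0482). Without the 2 farthest pools Gckr with Slc2a2 stayed at 0.622, while Srebf1 with Pnpla3 was 0.479 and so rested partly on those pools. Mlxipl had a weak relation to Pklr (r = 0.074), to Khk (r = 0.004) and to Pnpla3 (r = 0.107) over the 15 pools as they stand, of which Pklr and Pnpla3 are known targets of its protein. After group means were subtracted these values were 0.487, 0.619 and 0.52, and without the 2 farthest pools 0.471, 0.253 and 0.364. Without ON F1 pool 7 they were -0.136, -0.248 and -0.138, so the relation depended on the setting. Mlxipl went with Gckr at r = 0.671, where rho did not pass (0.596, adjusted permutation p = 0.0677). That r was 0.418 without the 2 farthest pools, and 0.929 after group means were subtracted. The pools share their normalisation, so these values describe 15 arrays.

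**Figure D4:**
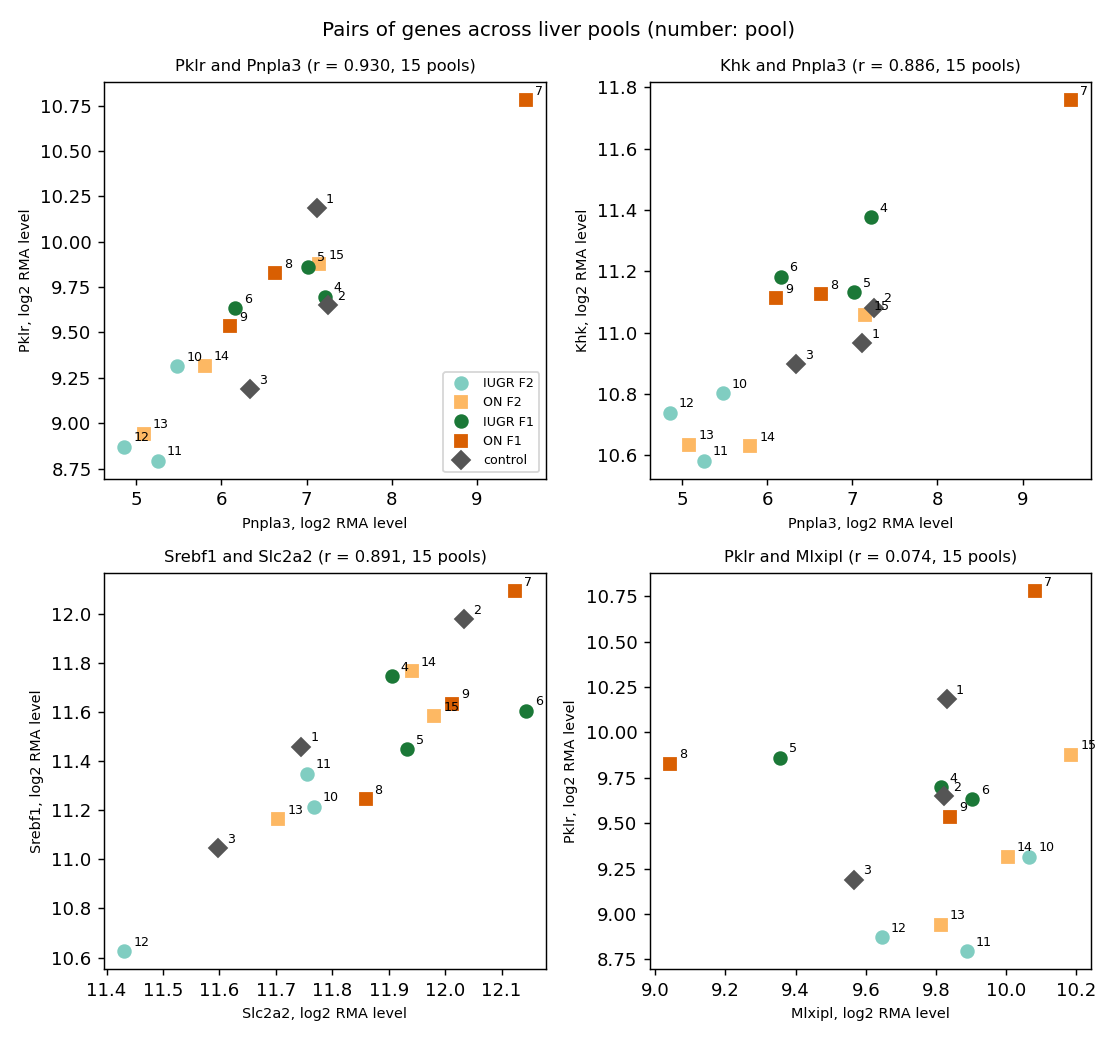
Log2 RMA levels of 4 pairs of genes plotted against each other, 1 point per pool with its number and its group's symbol. Pklr and Khk climb with Pnpla3 over the whole range, with ON F1 pool 7 at the upper end (r = 0.93 and 0.886), Srebf1 climbs with Slc2a2 (r = 0.891), and Pklr on Mlxipl has r = 0.074 over all pools as drawn, against 0.487 after group means were subtracted.

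Among 10362 genes with a mean of 5 or more, the genes most like each member over the 15 pools were named by Pearson's r, as a description. For Pnpla3 these were the fatty acid synthesis enzymes Fasn and Acaca (0.952 each) and Gpam (0.945), which starts triglyceride synthesis. For Pklr they were the retinol dehydrogenase Rdh16 (0.949), the acyl-CoA synthetase Acsl5 (0.937) and Gpam (0.93). Srebf1 was closest to Dhrs7 (0.922), Slc2a2 (0.891) and Mid1ip1 (0.865), and Slc2a2 to Pex7 (0.92), Srebf1 (0.891) and Pgm1 (0.879).

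The other members had neighbours outside fat synthesis. Khk was closest to Zswim7 (0.947), 2610306M01Rik (0.938) and Cebpzos (0.932). Pfkl was closest to Anxa6 (0.944), Cbs (0.943) and Hadha (0.942), Mlxipl to Marf1 (0.876), Vegfa (0.87) and Spag9 (0.869), Nr1h3 to Stt3b (0.903), Pyroxd1 (0.885) and Bod1 (0.857), and Gckr to Tigd2 (0.859), Sfxn1 (0.853) and Tbce (0.852).

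Most targets of SREBP1 and ChREBP were negative in F2 livers against control, and no single target passed. Of 17 measured SREBP1 targets beside the members, 17 were negative in IUGR F2 livers with a median of -0.45, 16 in ON F2 livers with a median of -0.26, 9 in IUGR F1 (-0.02) and 8 in ON F1 livers (0.01). Of 17 ChREBP targets, 15 were negative in IUGR F2 (-0.40), 13 in ON F2 (-0.21), 11 in IUGR F1 (-0.03) and 5 in ON F1 livers (0.12). The 2 lists share 8 genes, and over all genes between 45% and 53.4% were negative with medians from -0.01 to 0.02. Both lists were chosen with earlier results of these data known, so these counts describe them and do not test them. By pool, the SREBP1 list median ran from -0.60 to -0.31 of the control mean in IUGR F2, from -0.44 to -0.04 in ON F2, from -0.11 to 0.05 in IUGR F1 and from -0.35 to 0.89 in ON F1 pools, against -0.18 to 0.16 in control pools. ON F1 pool 7 gave the highest value for either list, 0.89. ON F1 pools 8 and 9 lay within the ON F2 range, at -0.25 and -0.35 for the SREBP1 list and at -0.20 and -0.15 for the ChREBP list, whose ON F2 range was -0.37 to -0.10. For the ChREBP list the IUGR F2 pools ran from -0.52 to -0.06 and the control pools from -0.28 to 0.20. Both F2 groups thus overlapped the control pools in that list.

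Fasn, fatty acid synthase, differed by -0.84 ± 0.31 in IUGR F2, -0.44 ± 0.31 in ON F2, -0.10 ± 0.31 in IUGR F1 and -0.02 ± 0.31 in ON F1 livers. Its level in ON F1 pool 7, 12.81, was the highest of the 15. Scd1, which makes monounsaturated fatty acids, differed by -0.41 ± 0.14 in IUGR F2 and -0.26 ± 0.14 in ON F2 livers (limma adjusted p = 0.652 and 0.374). The smallest p of the SREBP1 list belonged in all 4 groups to the desaturase Scd2, at -1.01 ± 0.23 in IUGR F2 livers, -0.58 ± 0.23 in ON F2 livers, -0.84 ± 0.23 in IUGR F1 livers and -0.49 ± 0.23 in ON F1 livers (limma adjusted p from 0.253 to 0.399). Of the ChREBP list the smallest p belonged to Scd1 in IUGR F2, the liver hormone Fgf21 in ON F2 (-0.92 ± 0.28, limma adjusted p = 0.166), Rgs16 in IUGR F1 (0.70 ± 0.39) and Ppp1r3c in ON F1 livers (0.58 ± 0.19). Txnip, a sugar-induced target of ChREBP, differed by 0.01 ± 0.18 in IUGR F2, 0.46 ± 0.18 in ON F2, 0.16 ± 0.18 in IUGR F1 and 0.34 ± 0.18 in ON F1 livers.

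**Figure D5:**
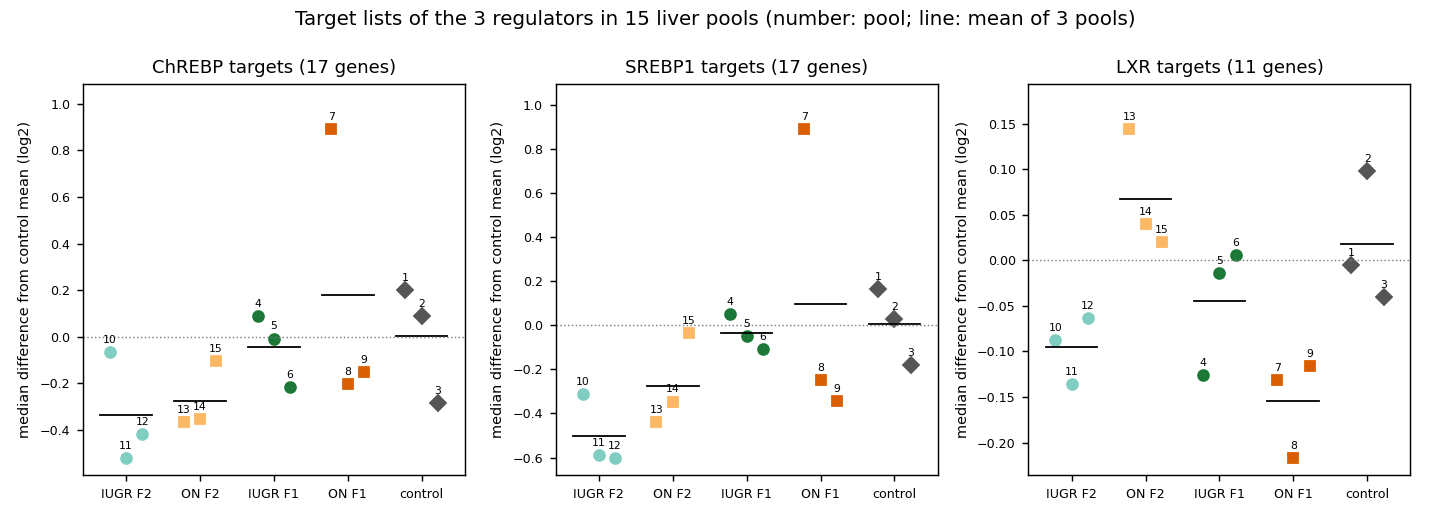
Median difference from the control mean (log2, vertical axis) over the measured genes of the ChREBP, SREBP1 and LXR target lists in each pool, by group, with pool numbers and a line at the mean of 3 pools. IUGR F2 pools lie at -0.52 to -0.06 and -0.60 to -0.31 for the first 2 lists, ON F1 pool 7 lies at 0.89 for both, and the LXR list stays between -0.22 and 0.14.

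Targets of LXR were mostly negative in IUGR F2 livers and mostly positive in ON F2 livers, a difference that was not tested. Their medians were -0.14 in IUGR F2 livers, 0.02 in ON F2 livers, -0.03 in IUGR F1 livers and -0.09 in ON F1 livers, with 10, 3, 6 and 8 of 11 genes negative in the same order. Over all genes 53.4%, 50.7%, 47.7% and 45% were negative. Between generations 9 of the 11 were negative in IUGR F2 against IUGR F1 livers (median -0.13) and 4 in ON F2 against ON F1 livers (0.22). There 58.1% and 56.6% of all genes were negative. This list, too, was chosen with earlier results of these data known, so its counts do not test it. In ON F2 against ON F1 livers 2 of the 11 rose, namely lipoprotein lipase, Lpl, by 1.57 ± 0.24 (limma adjusted p = 0.0116), and the sterol transporter gene Abcg8 by 0.57 ± 0.13 (0.0447). Of all genes 1.43% were called in that comparison. Lpl read 10.03, 9.63 and 9.96 in ON F2 pools, against 8.01, 9.00 and 7.92 in ON F1 pools. The ON F1 pools were also below every other pool of the series, with 9.45 ± 0.21 in IUGR F2, 9.74 ± 0.34 in IUGR F1 and 9.59 ± 0.12 in control livers (SD, n = 3 each). In the ON comparison Dbp was separate as well, as given above. With Dbp as a covariate neither gene passed, with 1.63 for Lpl (limma adjusted p = 0.0895) and 0.35 for Abcg8 (0.385). The Lpl call was also lost without ON F1 pool 7 (1.42, limma adjusted p = 0.0525), and the Abcg8 call without any 1 of pools 1, 5 and 7 to 15, with differences of 0.50 to 0.62. With only the arrays of the groups compared Abcg8 did not pass either (0.57, limma adjusted p = 0.104). Lpl was also called higher in the added F2 against F1 comparison over both lineages, by 0.64 ± 0.17 (limma adjusted p = 0.0482). No LXR target was called in the IUGR lineage alone.

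The partners that process SREBP1 or pair with LXR and ChREBP, 14 of 15 measured, had medians from -0.10 to 0.01 against control and 0 calls. Insig1, which holds the SREBP precursor in the endoplasmic reticulum and is itself an SREBP target, differed by -0.15 ± 0.13 in IUGR F2 livers, -0.01 ± 0.13 in ON F2 livers, -0.20 ± 0.13 in IUGR F1 livers and -0.26 ± 0.13 in ON F1 livers. Insig2 differed by 0.11 ± 0.20, -0.08 ± 0.20, 0.02 ± 0.20 and 0.16 ± 0.20 in the same order of groups. The smallest p in each group went to Nr0b2 (-0.55 ± 0.26) in IUGR F2, Nfyb (-0.33 ± 0.12) in ON F2, Insig1 in IUGR F1 and Rxra (-0.23 ± 0.11) in ON F1 livers.

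Other sugar transport and phosphorylation genes, 11 of 12 measured, had medians of -0.06 in IUGR F2, 0.10 in ON F2, 0.07 in IUGR F1 and 0.04 in ON F1 livers, and the hexokinase gene Hk3 rose in ON F2 against ON F1 livers by 0.37 ± 0.07 (limma adjusted p = 0.0279). Hk3 was dim, at 5.82, 5.89 and 5.93 in ON F2 pools against 5.54, 5.54 and 5.44 in ON F1 pools. The control pools lay between them at 5.81, 5.74 and 5.79. Kupffer cell markers, 12 of 12 measured, also moved here: 11 were higher in ON F2, with a median difference of 0.25, and pool medians of the list were -0.01 to 0.48 in ON F2, -0.28 to -0.03 in ON F1 and -0.25 to 0.33 in control pools. Their part in the Hk3 result was not tested. With Dbp as a covariate the Hk3 difference was 0.41 and did not pass (limma adjusted p = 0.159), and the call was also lost without any 1 of pools 7, 9, 13, 14 and 15, with differences of 0.34 to 0.40. Hk3 was also called higher in the added F2 against F1 comparison over both lineages, by 0.21 ± 0.05 (limma adjusted p = 0.0405). No gene of this list was called in the IUGR lineage alone. Against control, Hk1 in IUGR F2 (-0.25 ± 0.14), Slc2a9 in ON F2 (0.29 ± 0.09), Hkdc1 in IUGR F1 (0.28 ± 0.09) and Hk3 in ON F1 livers (-0.27 ± 0.07) had the smallest p of this list, none past the threshold.

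Of 24 further glycolysis and fructolysis enzymes 17 were measured, with medians of -0.09, -0.07, -0.11 and -0.03 in the same order of groups and 0 calls. Aldolase A, Aldoa, differed by -0.25 ± 0.08 in ON F2 and -0.32 ± 0.08 in ON F1 livers, and the glycerate kinase gene Glyctk by -0.23 ± 0.09 in IUGR F2 and -0.16 ± 0.09 in IUGR F1 livers, none past the threshold. Pentose phosphate enzymes, 7 of 8 measured, had medians of -0.13, -0.14, -0.06 and -0.02 and 0 calls, with the smallest p at Pgls in IUGR F2 (-0.16 ± 0.07), Taldo1 in ON F2 (-0.18 ± 0.08), Rpe in IUGR F1 (-0.16 ± 0.11) and Rpia in ON F1 livers (0.40 ± 0.30).

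Among the 6 genes of glucose output, the opposite direction of flow, Pck1 rose in ON F2 against ON F1 livers. This gene encodes the cytosolic phosphoenolpyruvate carboxykinase of gluconeogenesis. Pck1 read 12.08, 11.63 and 10.66 in ON F2 pools, against 9.17, 9.88 and 10.39 in ON F1 pools, and all 3 ON F2 pools were above the ON F1 pools. The control pools read 10.92, 11.11 and 11.67, so that the ON F2 pools overlapped them and the ON F1 pools lay below them. The difference between ON F2 and ON F1 was 1.64 ± 0.38 (limma adjusted p = 0.047). It was 1.12 and did not pass with Dbp as a covariate (limma adjusted p = 0.389), and the call was also lost without any 1 of pools 1, 2, 3, 4, 6, 7, 8, 10, 11, 12, 13 and 14, with differences of 1.32 to 1.68. Over both lineages, in the comparison added after the values were seen, Pck1 was also higher in F2, by 1.20 ± 0.27 (limma adjusted p = 0.0301). In the IUGR lineage alone no gene of this list was called. G6pc, the catalytic subunit of glucose 6-phosphatase, lay above every control pool in each IUGR F2, IUGR F1 and ON F1 pool, while ON F2 pool 15 at 10.42 was just below control pool 3 at 10.43. The means were 10.67 ± 0.21 in IUGR F2 livers, 10.46 ± 0.04 in ON F2 livers, 10.74 ± 0.22 in IUGR F1 livers and 10.89 ± 0.33 in ON F1 livers, against 10.19 ± 0.21 in control livers (SD, n = 3 each). Its differences of 0.48 ± 0.16, 0.27 ± 0.16, 0.55 ± 0.16 and 0.70 ± 0.16, in the same order, did not pass (limma adjusted p = 0.652, 0.452, 0.432 and 0.111). In ON F2 livers the smallest p of this list belonged to Pcx (-0.20 ± 0.09).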

How the data were processed

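Liver RNA of 15 pools in 5 groups of 3 was measured. Per the submitters' processing notes the authors used RMA, and the deposited values are its log2 levels for each probe set, after background correction, quantile normalisation and summarising of probes. The sources used here do not give its version. Shifts common to most genes are lost in this normalisation, and dim probe sets show smaller differences than exist.

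Of 45101 probe sets, 64 controls were left out. Of the rest, 34945 carried 1 gene symbol, 932 several and 9160 none, and 34741 matched the GRCm38.p6 RefSeq gene table through Entrez identifiers, and 0 symbols had to be updated. The probe set with the highest mean stood for each of 18193 genes. A single limma 3.58.1 model (R 4.3.3) held the 5 group means of the 15 arrays, with variances moderated by empirical Bayes (4.69 prior and 10 residual degrees of freedom). Tests were two-sided, and p-values were adjusted by Benjamini-Hochberg within each comparison over the whole table, at 0.05. Correlations used 100000 permutations in Python 3.11.15, adjusted over 36 pairs. Tested on simulated data (5 sets modelled on the IUGR F2 and control comparison, each of 18193 genes with 200 changed), the fit recovered 59.4% of genes changed by 0.5, 94.8% by 1 and 99.6% by 2, with 6 false calls on average. The changed genes were drawn at random, so these rates may not hold for members of wide spread, such as Pnpla3 (SE 0.69). Simulated noise was independent between genes, and 200 planted changes ease the adjusted threshold. In the real comparison of IUGR F2 with control 0 genes were called (smallest limma adjusted p = 0.259). The simulated rates may therefore not hold for these data. Groups came from the sample titles. Alternatives were other filters, probe sets, scalings, variance settings, covariates and arrays.

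All 9 members were named in each comparison. Genes most like a member were the 3 with the highest r, and list genes were named where called, or for the smallest p of a list against control, beside Dbp, G6pc, Txnip, Fasn, Scd1, Insig1 and Insig2. The members and lists were chosen with earlier results of these data known, and comparisons over both lineages were added after their values were seen.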

Additional observations from a re-analysis of the deposited data

Results flagged for a closer look

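Every F2 pool lay below every F1 pool for Pfkl and for Khk, as for 1.8% of all genes. In the F2 against F1 comparison over both lineages, added after its values were seen, log2 differences were -0.34 for Pfkl and -0.54 for Khk. Each IUGR F2 pool lay below the control mean of Khk and each IUGR F1 pool above it, with -0.52 between IUGR F2 and IUGR F1. The same held for Slc2a2, with -0.34 between IUGR F2 and IUGR F1. There IUGR F2 pools 10 and 11 read 11.77 and 11.75, close to the control mean of 11.79. Both lay inside the control range of 11.60 to 12.03. The share of all genes with pools on opposite sides of the control mean was not computed. For Khk and Slc2a2 within the IUGR lineage the difference in effect between the generations equals the direct comparison of IUGR F2 with IUGR F1, which did not pass in limma (adjusted p = 0.27 and 0.351).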

How the results depend on the processing

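Each difference was recomputed under 9 planned settings and without each of the 15 pools in turn. In every comparison other than F2 against F1 over both lineages, 0 members were called under each setting run. In that comparison 2 members were called, 1 with the mean of all probe sets of a gene, 1 with Dbp as a covariate, and 0 to 4 when a pool was left out. Pklr (-0.83) and Pnpla3 (-1.85) passed without ON F1 pool 9 (limma adjusted p = 0.0443 and 0.0428). Over all genes the count of calls there was 693, was 278 with Dbp as a covariate, and ran from 149 to 790 without single pools. In ON F2 against ON F1 it was 261, against 3 with Dbp as a covariate, 7 with only the arrays of the groups compared, 101 with array weights, 19 without ON F1 pool 7, 34 without ON F2 pool 13 and 26 without ON F2 pool 14, and it ran from 19 to 313 without single pools.

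Signs were compared where a difference exceeded its standard error. Pfkl reversed at probe set 1453541_at, with 0.24 for IUGR F2 and 0.34 for ON F2 against control, 0.16 for IUGR F2 against IUGR F1, 0.11 for ON F2 against ON F1, 0.14 for F2 against F1 over both lineages, and 0.29 and 0.15 for both F2 and both F1 groups against control. Probe set 1450269_a_at gave 0.0071 for ON F2 against ON F1. Pklr in IUGR F1 against ON F1 ran from -0.57 to 0.0496 when a pool was left out, positive only without ON F1 pool 7, and Pfkl in both F1 groups against control from -0.17 to 0.0436, positive only without control pool 1. The cause was not tested. Centring on the median took offsets of -0.10 to 0.08 from single arrays. No paired analysis was possible because the pool numbers run from 1 to 15 and no number is shared between groups. The small number of pools and the pooling of animals limit all of these values, and dim probe sets understate differences.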
